A study of Mus musculus with 2 samples.

Results

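Open chromatin of MN1, an immortalized mouse cell line, was mapped by DNase-seq, in which the nuclease DNase I cuts DNA that is not shielded by nucleosomes and the cuts are sequenced. Described here are 6430 distal regions that were found open in both biological replicates but whose peak score ranked much higher in replicate 1. Both libraries came from the same line (strain B6NCrl) treated with 10 nM methyltrienolone, a synthetic androgen, so they form 1 group of 2 replicates. No untreated library was analysed here, and the labels name no tissue. Each replicate's peak list carries a score per 150 bp peak, set by the authors, whose meaning the labels do not state. Overlapping peaks of both lists (1 bp or more) were joined into shared regions, and those on the 19 autosomes centred more than 2.5 kb from any annotated transcription start site (TSS) were kept as distal, 74676 of 125221. The highest score of each region was turned into a percentile of the replicate's own list. The 6430 regions were chosen on that score, as those whose percentile was at least 25 points higher in replicate 1, so the scores below describe the choice and test nothing. They make up 8.61% of the shared distal regions. Another 2499 (3.35%) were at least 25 points higher in replicate 2, and 65747 lay in between and are called balanced. Among shared regions nearer to a TSS, 1806 of 50545 (3.57%) were at least 25 points higher in replicate 1 and 825 (1.63%) in replicate 2.

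The lists held 189930 peaks in replicate 1 and 171017 in replicate 2, with median scores of 53 and 51. Read depth behind the lists is unknown. Sequencers are named for replicate 1 alone, an Illumina HiSeq 2500 and a NextSeq 500, so an effect of the instrument and one of the replicate cannot be told apart. With 1 library on each side no difference between the replicates could be tested. Shares are given with 95% Wilson intervals, which cover counting error only.

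Distal open sites are mostly enhancers and insulators, and the short motifs in them are bound by transcription factors. EBF factors, named after early B-cell factor, act in B lymphocytes and in developing neurons and bind a palindrome of TCCC and GGGA. AP-1, the dimers of JUN and FOS proteins, binds TGA and TCA separated by 1 base and responds to growth and stress signals. Basic helix-loop-helix factors such as the proneural proteins bind E-boxes, which are CA and TG around 2 central bases. CTCF holds chromatin loops and insulates neighbouring domains. Androgen and glucocorticoid receptors bind the steroid receptor element, an inverted repeat of AGAACA and TGTTCT separated by 3 bases.

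The regions are first shown as sequence, read from the GRCm38 assembly of RefSeq, which mm10 denotes, on the plus strand. The 2 regions with the largest difference follow as 150 bp around their centre. At chr14:72997086-72997235, an intergenic site nearest to Cysltr2 among protein-coding genes, the score was 97 in replicate 1 and 21 in replicate 2. At chr2:110085706-110085855, in an intron and nearest to Ccdc34, it was 119 in replicate 1 and 28 in replicate 2. Capitals mark an E-box, CAGATG in the first and CAGCTG in the second.
Cysltr2 region: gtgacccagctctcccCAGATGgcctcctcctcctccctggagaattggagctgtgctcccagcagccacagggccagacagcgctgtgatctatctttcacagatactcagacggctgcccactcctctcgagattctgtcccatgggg
Ccdc34 region: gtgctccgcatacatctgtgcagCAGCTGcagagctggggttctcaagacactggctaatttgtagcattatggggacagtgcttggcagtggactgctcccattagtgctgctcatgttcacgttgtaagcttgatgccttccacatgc

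EBF sites had the highest ratio of the motifs that were more frequent in these regions, and the 8 regions with an EBF site and the largest difference are shown next with up to 10 bases on either side of the site, which is in capitals. They lie at chr4:70321713-70321742 (scores 97 in replicate 1 and 27 in replicate 2), chr12:82435442-82435471 (90 and 27), chr1:62569359-62569388 (88 and 27), chr3:108310816-108310845 (73 and 22), chr9:58526832-58526855 (105 and 33), chr5:136355850-136355879 (97 and 31), chr6:113541809-113541838 (81 and 26) and chr13:111936447-111936476 (93 and 30), replicate 1 first in each pair. All but the last, which is intergenic, lie in introns, and each is named by the nearest protein-coding gene.
Cdk5rap2: attatatttcTCCCTTGGGAtcctgctgct
Sipa1l1: aggctagcagTCCCTTGGGAagcctcccag
Nrp2: tttcacatggTCCCTGGGGAagatgttctg
Sort1: tcccatctctTCCCAAGGGAcctaaatgaa
Cd276: ccaagatgctTCCCTGGGGAacag
Cux1: cactcatactTCCCATGGGAcagttatgcc
Fancd2: gggtgccagaTCCCTTGGGAgtggagttac
Map3k1: tgcaaacaaaTCCCTAGGGAgggagagatg
Nrp2 encodes a semaphorin receptor of growing axons, Sort1 a sorting receptor for neurotrophin precursors, and Cux1 a homeodomain factor.

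Among motifs found in at least 1% of the regions stronger in replicate 1 or of those stronger in replicate 2, the 4 whose share differed most by ratio were CTCF, the steroid receptor element, EBF and the E-box CAGCTG. For each, the region with the highest percentile in replicate 1 that holds the motif is shown, with the match in capitals. The CTCF match is at chr2:158717646-158717795, in an intron nearest to Ppp1r16b, with scores of 107 in replicate 1 and 58 in replicate 2. The steroid receptor element is at chr3:28014106-28014255, in an intron nearest to Pld1, a phospholipase, with 114 in replicate 1 and 42 in replicate 2. The EBF site is at chr2:13084366-13084515, in an intron and nearest to C1ql3 among protein-coding genes, with 129 in replicate 1 and 67 in replicate 2. The E-box is at chr3:69520396-69520545, in an intron nearest to Ppm1l, with 132 in replicate 1 and 70 in replicate 2. The first 2 matches each carry 2 mismatches to their pattern, the most allowed.
CTCF: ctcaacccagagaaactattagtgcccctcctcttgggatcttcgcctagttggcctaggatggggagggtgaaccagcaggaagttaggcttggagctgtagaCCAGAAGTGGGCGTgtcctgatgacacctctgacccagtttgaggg
steroid receptor element: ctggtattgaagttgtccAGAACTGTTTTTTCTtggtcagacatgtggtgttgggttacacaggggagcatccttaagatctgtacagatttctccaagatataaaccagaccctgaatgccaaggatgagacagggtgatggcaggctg
EBF: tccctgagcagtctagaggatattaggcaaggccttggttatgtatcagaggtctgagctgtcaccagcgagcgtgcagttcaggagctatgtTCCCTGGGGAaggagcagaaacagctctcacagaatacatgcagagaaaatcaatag
E-box: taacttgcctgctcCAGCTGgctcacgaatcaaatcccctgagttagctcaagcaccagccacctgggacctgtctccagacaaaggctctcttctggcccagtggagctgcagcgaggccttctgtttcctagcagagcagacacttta

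By the rule, the regions were mid-ranking in replicate 1 and weak in replicate 2. Their score had a median of 68 in replicate 1 (lowest 35, highest 136) and of 35 in replicate 2 (lowest 13, highest 72). As percentiles the medians were 63.2 in replicate 1 and 26.9 in replicate 2. Few were strong in both, since 8.63% reached the 50th percentile in each replicate, against 55.1% of balanced regions. The difference ran from 25.05 to 75.02 points with a median of 32.6, and 38.6% of the regions differed by at least 35 points and 6.66% by at least 50. The regions stronger in replicate 2 had median scores of 32 in replicate 1 and 55 in replicate 2, and only 24.5% of them differed by at least 35 points. At the threshold, the nearest region inside had scores of 37 and 21 (30.2 minus 5.16, a difference of 25.05 points) and the nearest outside 105 and 59 (83.8 minus 58.8, 24.998 points). Between 25 and 26 points there were 540 regions, and between 24 and 25 points 639. The excess over the regions stronger in replicate 2 depends on how the percentile is taken: when ranks were taken among the shared distal regions alone, 6144 were at least 25 points higher in replicate 1 and 5426 in replicate 2.

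**Figure D1:**
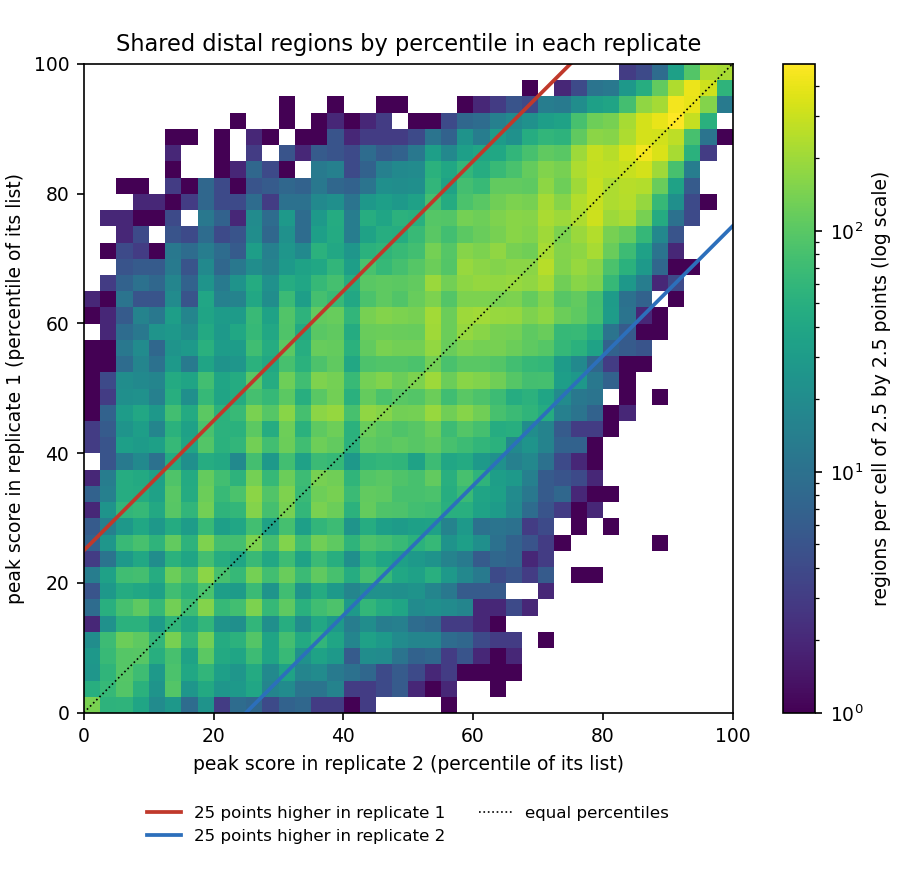
Percentile of the highest peak score in replicate 1 (vertical axis) and in replicate 2 (horizontal axis) for the 74676 shared distal regions, with the number of regions per cell as colour on a log scale. The 6430 regions above the red line were taken, the 2499 below the blue line were at least 25 points higher in replicate 2, and most regions follow the dotted line of equal percentiles.

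The 10 regions with the largest difference had scores of 87 to 119 in replicate 1 and 18 to 29 in replicate 2. After the sites near Cysltr2, a leukotriene receptor, and Ccdc34 came an intergenic site nearest to Rab11fip4, an endosome adaptor, with 112 in replicate 1 and 27 in replicate 2. An intronic site nearest to Vxn, which promotes neurogenesis in frog embryos, had 111 in replicate 1 and 27 in replicate 2 and held an E-box CAGCTG and an AGGTCA half-site of nuclear receptors. The others were nearest to Pdcd6ip, an adaptor of membrane remodelling (87 in replicate 1 and 18 in replicate 2), Rgs6, a regulator of G protein signalling (100 and 25), Actbl2 (115 and 29), Rnf32 (90 and 21), St3gal3, a sialyltransferase (87 and 20), and Cntln, a centrosome protein (95 and 25). The score in replicate 1 was over 3 times that in replicate 2 in each of them. They lay 4343 to 224121 bp from the nearest TSS of any gene, 5 of them in introns and 5 between genes. The E-box CAGCTG was in 4 of them, the E-box CAGATG in 4 and an AP-1 site in 2, against 15.3%, 20.9% and 17.5% of all shared distal regions. None held a CTCF match, a steroid receptor element or an EBF site, which 8.82%, 3.48% and 2.21% of all shared distal regions held. Counts in 10 regions are too small to compare with these shares.

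The wider hotspots of the authors, enriched stretches that contain the peaks, also differed, although they come from the same contrast as the rule and were read only as a description. The hotspot over these regions had a median width of 395 bp in replicate 1 and of 214 bp in replicate 2 and was wider in replicate 1 at 95.2% of them, against 57.0% of balanced regions. The −log10 of its q-value was at the ceiling of the scale, where the q-value is smallest, at 85.3% of the regions in replicate 1 and at 16.8% in replicate 2. A single peak in each replicate made up 96.0% of the regions, and the highest peaks of both replicates started within 20 bp of each other at 66.1%, against 72.9% in the regions stronger in replicate 2 and 74.8% in balanced regions. At 1.90% of the regions the peaks compared started over 100 bp apart.

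The sequence of the regions was not used to choose them. In the 150 bp around the centre, EBF sites, AP-1 sites and the E-boxes CAGCTG and CAGATG were more frequent in regions stronger in replicate 1, while CTCF sites and steroid receptor elements were rare. Of 29 motifs searched on both strands, 9 had a share whose interval lay above that of the regions stronger in replicate 2, 6 had one below it and 14 overlapped. EBF sites had the highest of the 9 ratios. They lay in 306 regions stronger in replicate 1 (4.76%, interval 4.27% to 5.31%), in 0.560% (0.334% to 0.938%) of those stronger in replicate 2 and in 2.02% of balanced regions, with 0.327% in the flanks 1 kb downstream of the regions stronger in replicate 1. Of all shared distal regions with an EBF site, 18.6% were stronger in replicate 1 and 0.8495% in replicate 2, while these classes hold 8.61% and 3.35% of all regions. The central bases of the site were CA (or TG on the other strand) at 32.4% and AG (or CT) at 30.4% of the sites, against 32.6% and 26.3% in balanced regions.

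E-boxes differed by their central bases. The palindromic E-box CAGCTG was in 18.9% (17.96% to 19.9%) of the regions stronger in replicate 1, in 9.16% (8.09% to 10.4%) of those stronger in replicate 2 and in 15.2% of balanced regions, against 7.47% in the flanks. CAGATG, an E-box that proneural factors such as NEUROD1 bind, was in 25.9%, 17.0% and 20.5% of these classes and in 12.7% of flanks. CACCTG, which the ZEB and SNAIL repressors bind, was in 8.76% of the regions stronger in replicate 1 and in 9.72% of those stronger in replicate 2, with overlapping intervals, and was below the 11.7% of the flanks. Among all 10 E-boxes, looked at after the first 3, CAGCTG and CAGATG had the highest ratios and CAATTG the lowest (2.19% in regions stronger in replicate 1 and 2.80% in those stronger in replicate 2). AP-1 sites were in 1347 regions stronger in replicate 1 (20.9%, 19.97% to 22.0%), in 10.3% (9.15% to 11.5%) of those stronger in replicate 2, in 17.4% of balanced regions and in 4.45% of flanks. At least 1 of EBF, AP-1, CAGCTG and CAGATG was in 56.4% of the regions stronger in replicate 1, 33.2% of those stronger in replicate 2 and 45.5% of balanced regions, while their flanks were alike, at 22.7%, 22.7% and 22.6%. Among regions stronger in replicate 1, an AP-1 site was in 13.4% of those with an EBF site and in 21.3% of those without one. Balanced regions had the same direction, with 13.2% and 17.5%. Of the 14 regions stronger in replicate 2 with an EBF site, 0 held an AP-1 site.

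**Figure D2:**
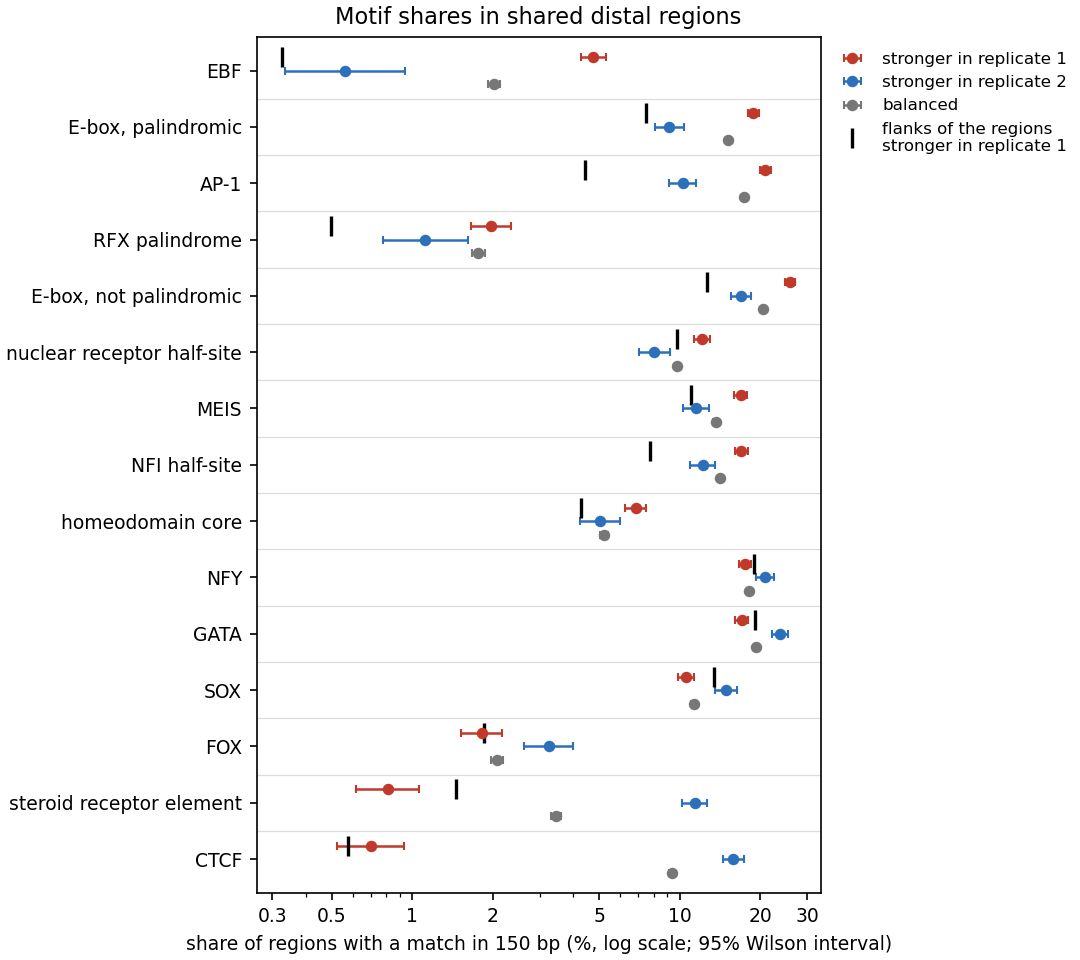
Share of regions with at least 1 match in the central 150 bp (horizontal axis, percent on a log scale, bars are 95% Wilson intervals) for the 15 motifs whose intervals did not overlap between regions stronger in replicate 1 and in replicate 2. EBF lies at 4.76% against 0.560%, CTCF at 0.700% against 15.9%, and balanced regions lie mostly in between.

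Smaller differences on the same side were seen for NFI half-sites TTGGCA (17.0% in regions stronger in replicate 1, 12.2% in those stronger in replicate 2), MEIS sites TGACAG (16.9% and 11.5%), nuclear receptor half-sites AGGTCA (12.1% and 8.04%), homeodomain cores TAATTA (6.86% and 5.04%) and RFX palindromes (1.98% and 1.12%). NFI and RFX factors act in neural and glial genes and in ciliated cells, and MEIS proteins are partners of HOX proteins. On the other side were GATA sites GATAA, with 17.1% in regions stronger in replicate 1 and 23.8% in those stronger in replicate 2, SOX sites ACAAAG (10.6% and 15.0%), NFY boxes CCAAT (17.6% and 20.8%) and FOX sites GTAAACA (1.82% and 3.24%). For these 4 motifs the flanks of the regions stronger in replicate 1 lay at 19.2%, 13.5%, 19.0% and 1.85%, at or above the share in the regions themselves. The GATA ratio of 0.717 was 0.918 in regions of under 45% GC, 0.963 in those of 45 to 55% and 0.614 in those over 55%. In the same GC classes the homeodomain ratio, 1.36 over all regions, was 2.18, 2.02 and 4.07. The last rests on 1 match in 195 regions stronger in replicate 2. AP-1 ratios in these classes were 2.14, 2.24 and 1.88. The homeodomain ratio was thus below that of AP-1 at 45 to 55% GC and with all GC contents pooled, and near it under 45%. SP/KLF boxes GGGCGG, common in CpG-rich promoters, were in 3.05% of regions stronger in replicate 1, 2.80% of those stronger in replicate 2 and 5.13% of balanced regions.

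CTCF sites were about as rare in the regions stronger in replicate 1 as in their flanks. The pattern searched, CCA and AGGGGGCGC separated by 2 bases with up to 2 mismatches, was chosen after a looser pattern had matched many flanks. It matched 45 of the 6430 (0.700%, 0.523% to 0.935%), close to their flanks (0.575%), but 15.9% (14.5% to 17.4%) of the regions stronger in replicate 2 and 9.35% of balanced regions. Of all shared distal regions with this pattern, 0.683% were stronger in replicate 1 and 6.03% in replicate 2. Steroid receptor elements, with up to 2 mismatches, were in 52 of the 6430 regions (0.809%, 0.617% to 1.06%), below the 1.46% of their flanks, in 11.4% (10.2% to 12.7%) of the regions stronger in replicate 2 and in 3.45% of balanced regions. Exact elements were found in 1 region stronger in replicate 1 and in 12 stronger in replicate 2, and with at most 1 mismatch in 4 and 81. With up to 3 mismatches, where flanks already reach 10.7%, the shares were 7.48% in regions stronger in replicate 1 and 29.1% in those stronger in replicate 2. To show the element, 3 matches come from regions stronger in replicate 1, those with the largest difference, and 3 from regions stronger in replicate 2 that were picked for an exact element, in capitals with 5 bases on either side. Since the sets were picked by different rules, their number of mismatches is no comparison. They lie at chr12:113189956-113189980 (scores 76 in replicate 1 and 26 in replicate 2), chr3:28014119-28014143 (114 and 42), chr17:72391284-72391308 (65 and 29), chr9:49490520-49490544 (39 and 75), chr7:110499053-110499077 (25 and 49) and chr17:33774886-33774910 (47 and 90).
Tmem121: cagccAGAACAATCTGGCCTtatgt
Pld1: tgtccAGAACTGTTTTTTCTtggtc
Alk: attcaAGAACAATTGGCTCTtctct
Ttc12: aacagAGAACAGCATGTTCTcacgc
Sbf2: caaacAGAACAAAATGTTCTactcc
Angptl4: aacagAGAACAAAATGTTCTgaggt
Angptl4, a secreted inhibitor of lipoprotein lipase, is a known target of the glucocorticoid receptor.

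Matches were also placed differently within the regions. In the central 20 bp on either side of the centre, EBF sites in regions stronger in replicate 1 reached 10.96 matches per 1000 regions per 20 bp, 17.2 times their density beyond 300 bp. AP-1 sites reached 43.6 in regions stronger in replicate 1 (6.46 times) and 20.01 in those stronger in replicate 2 (2.84 times). CTCF matches in regions stronger in replicate 1 showed no rise at the centre, with 1.17 against 1.05 beyond 300 bp (1.11 times), while in regions stronger in replicate 2 they rose to 59.8, 65.0 times the outer density. Steroid receptor elements were at 1.17 in the centre of regions stronger in replicate 1, against 1.84 beyond 300 bp (0.636 times), and at 22.8 in the centre of regions stronger in replicate 2 (10.5 times). In regions stronger in replicate 1, CTCF and steroid matches were thus about as dense at the centre as outside it, or less.

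**Figure D3:**
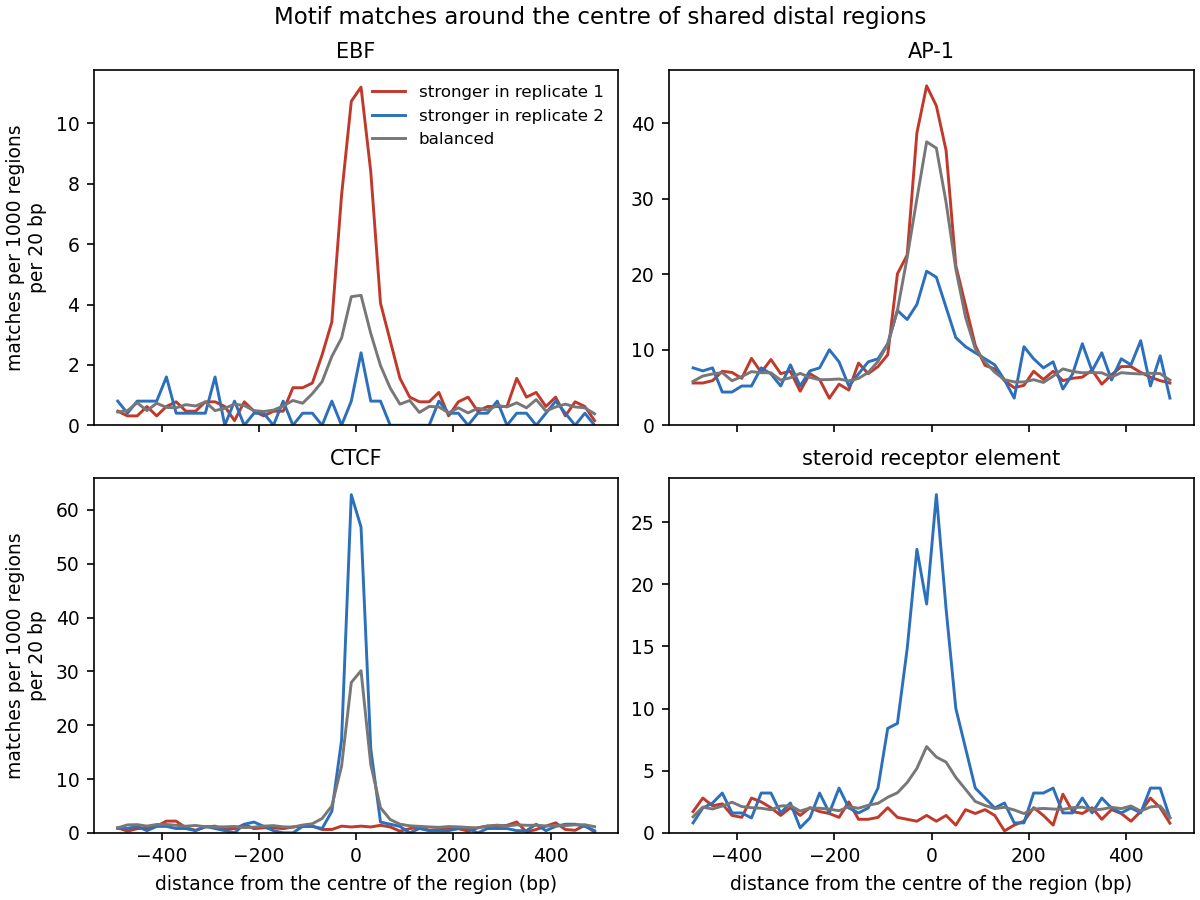
Matches per 1000 regions per 20 bp (vertical axis) by distance from the centre of the region in bp, for EBF, AP-1, CTCF and the steroid receptor element. In regions stronger in replicate 1 (red) EBF and AP-1 matches pile up at the centre and CTCF and steroid receptor elements stay at the outer level, while in regions stronger in replicate 2 (blue) both of these pile up.

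The shares changed by degrees with the difference between the replicates, over all 74676 regions and not only at the threshold. EBF sites were in 0.163% of the 613 regions at least 35 points higher in replicate 2, in 1.64% of those within 5 points and in 7.01% (4.95% to 9.83%) of the 428 regions at least 50 points higher in replicate 1. Within the regions stronger in replicate 1 the EBF share was 3.87% at 25 to 35 points and 5.99% at 35 to 50. AP-1 levelled off: it was 11.3% at the replicate 2 end, 20.7% at 5 to 15 points and 19.9% at 50 points or more. Steroid receptor elements ran the other way, with 14.0% at the replicate 2 end, 3.02% within 5 points and 0.234% at 50 points or more. CTCF sites stayed between 14.5% and 16.7% up to a difference of 5 points in favour of replicate 2, and were at 10.6% within 5 points, 3.16% at 5 to 15 points and 0.467% at 50 points or more.

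**Figure D4:**
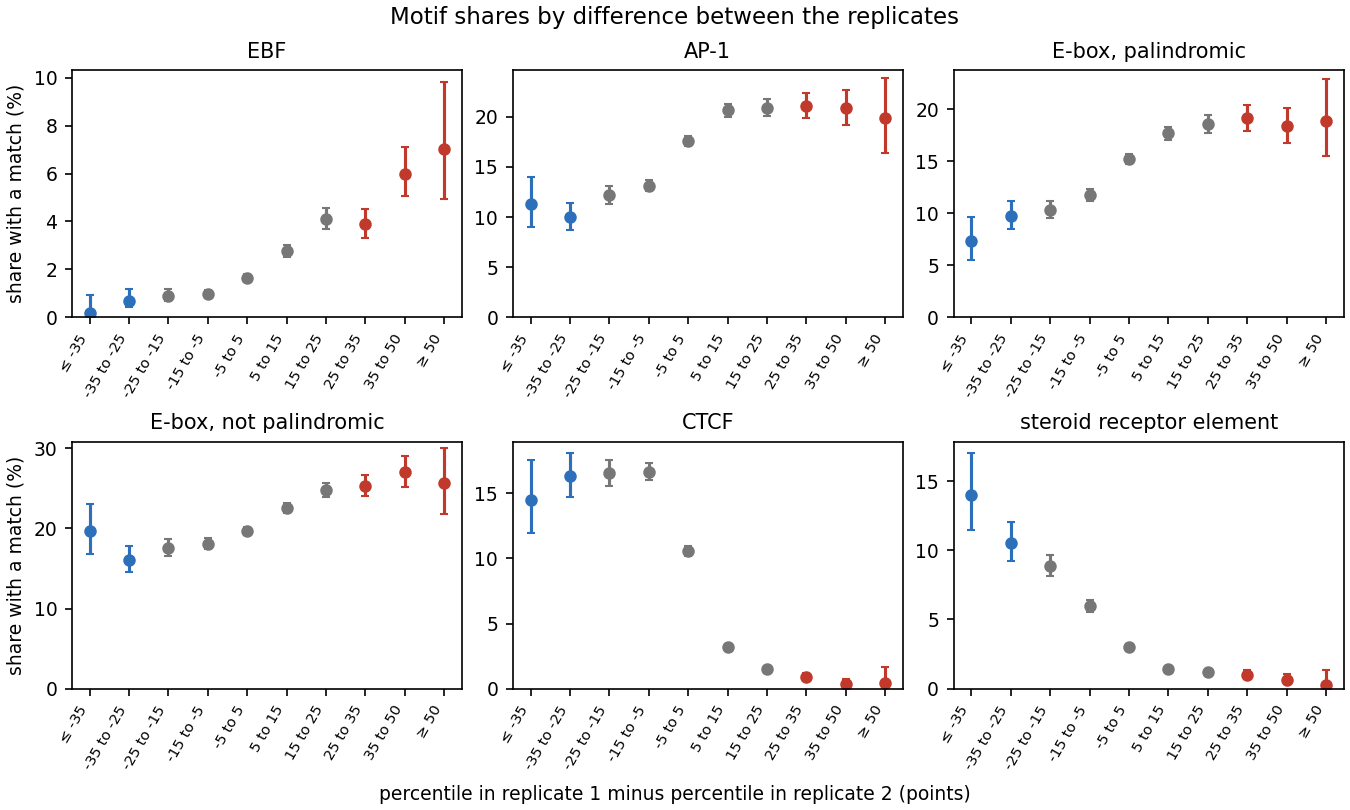
Share of shared distal regions with a match (vertical axes from 0, percent, bars are 95% Wilson intervals) by the percentile in replicate 1 minus that in replicate 2 (horizontal axes, points). Red points are regions stronger in replicate 1, blue points those stronger in replicate 2; EBF sites run from 0.163% to 7.01% and steroid receptor elements from 14.0% to 0.234%. E-box panels show the palindromic CAGCTG and the non-palindromic CAGATG.

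These contrasts were found on each chromosome. On all 19 autosomes EBF, AP-1, CAGCTG and CAGATG shares were higher, and CTCF and steroid receptor element shares lower, in regions stronger in replicate 1 than in those stronger in replicate 2. The EBF share in regions stronger in replicate 1 ranged from 2.55% to 7.87% over the chromosomes, against 0% to 2.19% in those stronger in replicate 2. The steroid receptor element ranged from 0% to 2.37% in regions stronger in replicate 1 and from 5.41% to 17.3% in those stronger in replicate 2. GC content was higher as well, with a mean of 50.8% ± 5.75 in regions stronger in replicate 1, 46.0% ± 6.33 in those stronger in replicate 2 and 50.4% ± 6.56 in balanced regions (SD over 6430, 2499 and 65747 regions). Regions of under 45% GC made up 15.5% of those stronger in replicate 1 and 43.9% of those stronger in replicate 2. CpG dinucleotides averaged 1.86 per 150 bp in regions stronger in replicate 1, 1.796 in those stronger in replicate 2 and 2.40 in balanced regions, and repeat-masked bases 7.78%, 11.6% and 9.51%. GC content moves with several motifs: over the alternatives run, these classes included, the ratio of regions stronger in replicate 1 to those stronger in replicate 2 was at least 5.51 for EBF and 1.62 for AP-1, and at most 0.146 for CTCF and 0.132 for the steroid receptor element. The E-box ratios fell lower, from 2.06 to 1.28 for CAGCTG and from 1.52 to 1.25 for CAGATG. The 1.28 was in regions over 55% GC, where CAGCTG shares were 28.9% and 22.6%.

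A search of all 6-mers was added after the motif results were seen. It includes CAGCTG, whose matches are those of the E-box above, and it added A-rich words. Of 1645 6-mers found in at least 2% of either class, 120 (7.29%) were at least 1.5 times as frequent in regions stronger in replicate 1 as in those stronger in replicate 2, and 232 (14.1%) were less frequent by at least the same factor. High on the first side were AGCTGC (22.1% and 9.48%) and CCCAGG (27.4% and 13.0%), beside CAGCTG. Lowest was GCGCCC, which read on the other strand is part of the CTCF pattern, with 1.03% in regions stronger in replicate 1 and 4.12% in those stronger in replicate 2. A-rich words were also less frequent, such as AAAAAA with 4.26% and 12.1% and AATATT with 1.37% and 4.24%. The 6-mers were not split by GC content, which differed between these classes.

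By position, regions stronger in replicate 1 lay in introns more often than the others. Introns held 57.9% of them (56.7% to 59.1%), against 49.9% (48.0% to 51.9%) of those stronger in replicate 2 and 51.9% of balanced regions, and 37.0%, 45.6% and 43.3% lay between genes. Exons held 5.10%, 4.48% and 4.81%. The nearest TSS of any gene lay at a median of 15016 bp from regions stronger in replicate 1, 14139 bp from those stronger in replicate 2 and 12165 bp from balanced regions, and 5.05%, 3.60% and 2.90% lay more than 100 kb away.

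The regions were unevenly spread over the genome. Their share of shared distal regions was 12.8% (11.8% to 13.9%) on chromosome 6, 12.3% on chromosome 14 and 12.02% on chromosome 19, and 4.91% (4.25% to 5.67%) on chromosome 15. The share stronger in replicate 2 ranged from 2.51% on chromosome 4 to 4.92% on chromosome 16. Over 397 bins of 5 Mb with at least 50 shared distal regions, the share stronger in replicate 1 had a median of 8.51% and ran from 0.885% to 24.6%. The highest bin, chr3:20000001-25000000, had 14 of 57 shared distal regions stronger in replicate 1 and 1 in replicate 2, and at chr6:55000001-60000000 these counts were 20 and 4 of 83. The large bin at chr15:100000001-105000000 had 5 and 8 of 317. Neighbours were counted for replicate 1 only. Around regions stronger in replicate 1, 11.6% of the other shared distal regions within 50 kb were also stronger in replicate 1, against 6.52% around those stronger in replicate 2 and 7.14% around balanced regions. Within 10 kb these shares were 13.6%, 4.91% and 6.36%. These counts come from the same contrast as the rule and are descriptions.

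**Figure D5:**
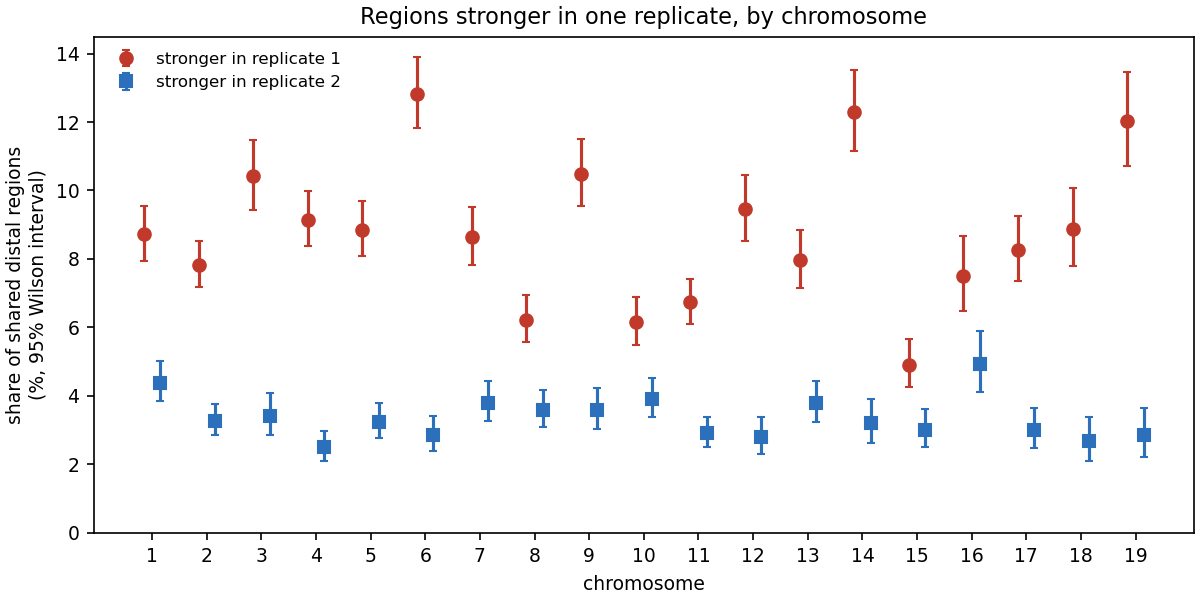
Share of the shared distal regions of each autosome (vertical axis from 0, percent, bars are 95% Wilson intervals) that were at least 25 points higher in replicate 1 (red circles) or in replicate 2 (blue squares). Chromosome 6 is highest at 12.8% and chromosome 15 lowest at 4.91% for replicate 1, and on each autosome the share for replicate 1 is at least 1.52 times the other.

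Of 12247 protein-coding genes that were nearest to a shared distal region, 3462 were nearest to at least 1 region stronger in replicate 1, and 213 to 5 or more. The most, 17 of 60, lay at Lrmda, a melanocyte differentiation gene, where scores ran from 44 to 129 in replicate 1 and from 20 to 47 in replicate 2 and no region was stronger in replicate 2. Zmiz1, a coregulator of the androgen receptor, had 17 of 130, with scores of 55 to 106 in replicate 1 and 27 to 56 in replicate 2. Gfra2, the neurturin receptor, had 16 of 53, 14 of them between genes and the farthest 732195 bp from a protein-coding TSS. Zfp462, a zinc finger gene, had 15 of 43 with none stronger in replicate 2, which at 34.9% was the highest share of the 10 genes. Next were Rbms3 (15 of 80) and Zfp608 (15 of 115), then Grik3, a kainate receptor subunit (14 of 58), Magi1, a scaffold of cell junctions (14 of 77), Tenm4, a teneurin of synaptic partner choice (14 of 88), and Auts2 (13 of 135). The share was 9.63% at Auts2 and 13.0% to 34.9% at the other 9 genes, with 8.61% over all shared distal regions. Since these genes were picked for their number of such regions, high shares follow largely from the choice and test nothing. Regions stronger in replicate 2 numbered 7 at Auts2, 4 at Tenm4, 3 each at Zfp608 and Magi1, 2 each at Zmiz1 and Rbms3, 1 at Gfra2 and 0 at Grik3. Promoters of such genes differed little: at 555 genes nearest to 3 or more regions stronger in replicate 1 the promoter percentile was higher in replicate 1 by a median of 0.371 points, against 0.0219 over all 12634 genes with a shared promoter region. The median promoter percentile of the 555 genes was 94.2 in replicate 1 and 94.1 in replicate 2. So near the top of the scale, percentiles have little room to rise. At Gfra2 the promoter was at the 87.1 percentile in replicate 1 and at 75.02 in replicate 2, and at Zmiz1 at 98.4 and 98.0.

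Among gene lists, axon guidance genes had the highest share, 50 of 369 shared distal regions (13.6%, 10.4% to 17.4%) stronger in replicate 1, against 8.61% over all regions. The median difference over their regions was 5.16 points, against 2.01 over all shared distal regions. Sema6d, a transmembrane semaphorin, had 11 of 51, with scores of 42 to 114 in replicate 1 and 21 to 63 in replicate 2. Its largest difference was at chr2:124792676-124792865, with 86 in replicate 1 and 25 in replicate 2. Plxna4, a semaphorin receptor subunit, had 7 of 35, all in introns, among them chr6:32530976-32531245 with 99 in replicate 1 and 29 in replicate 2. Slit2, a repellent ligand, had 7 of 34, Efna5, an ephrin, 7 of 62, and Ntn1, the guidance cue netrin-1, 5 of 24. The E-box CAGCTG was in 4 of the 7 regions at Efna5, 3 of 7 at Plxna4 and 3 of 11 at Sema6d. At Ntn1 it was in 1 of 5 and at Slit2 in 0 of 7, against 18.9% of all regions stronger in replicate 1. The E-box CAGATG was in 4 regions at Efna5 and in 2 at each of the others, against 25.9%. AP-1 sites were in 3 at Slit2, 1 each at Sema6d and Ntn1 and 0 at Efna5 and Plxna4, against 20.9%. These counts are too small to compare genes with each other or with these shares.

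The neural crest, pan-neuronal, sympathetic and EBF, NFI and RFX lists also lay above the share of all regions, with intervals that held it. The blood, skeletal muscle and fibroblast lists, given further below, lay above that share too, by less. The motor neuron, receptor target, AP-1, glial and epithelial lists lay below it. Every list but axon guidance had an interval that held the share of all regions. The intervals take regions as independent, although regions stronger in replicate 1 lay close together, so they do not test a list. Neural crest and mesenchymal genes had 23 of 185 (12.4%, 8.43% to 17.96%, median difference 5.91 points), led by Sox9 with 11 of 66 and Zeb2, a repressor that binds E-boxes, with 6 of 51. Pan-neuronal genes had 31 of 279 (11.1%, 7.94% to 15.3%, 4.51 points), among them Celf4 with 7 of 65, Stmn2, a microtubule regulator of growth cones, with 6 of 25, and Map2, a dendritic microtubule protein, with 5 of 14. Rbfox3 had 3 of 31 and Syt1 3 of 33. Regions stronger in replicate 2 numbered 2 at Syt1, 1 each at Map2 and Rbfox3, and 0 at Celf4 and Stmn2. Of the 20 pan-neuronal genes, 10 were nearest to a region stronger in replicate 1. EBF, NFI and RFX genes had 17 of 156 (10.9%, 6.92% to 16.8%, 6.75 points) and 1 region stronger in replicate 2, with 7 of 50 at Nfib and 3 of 20 at Ebf3. At Ebf3, scores were 63, 84 and 62 in replicate 1 and 38, 35 and 35 in replicate 2. Sympathetic and neuroblastoma genes had 19 of 181 (10.5%, 6.82% to 15.8%, 4.18 points), with 6 of 30 at Alk, a receptor tyrosine kinase mutated in neuroblastoma, all in introns, 4 of 27 at Gata3, and at Hand2 2 stronger in replicate 1 and 5 in replicate 2.

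Motor neuron genes had 8 of 132 regions stronger in replicate 1 (6.06%, 3.10% to 11.5%, median difference 1.36 points), with 2 each at Isl1 and Etv4. Targets of the androgen and glucocorticoid receptors had 9 of 145 stronger in replicate 1 (interval 3.30% to 11.4%) and 9 stronger in replicate 2, each 6.21%. Over all shared distal regions these shares were unlike, 8.61% and 3.35%. The median difference was -1.52 points, meaning higher in replicate 2. Of the 9 stronger in replicate 1, 3 lay at Acsl3, a fatty acid activating enzyme, and 2 at Sgk1, a kinase gene induced by glucocorticoids. Scores at Acsl3 were 56, 65 and 56 in replicate 1 and 30, 33 and 28 in replicate 2. AP-1 and activity genes had 5 of 83 (6.02%, 0.901 points), 3 of them at Jun and 2 at Egr1. Among lists of other cell types, fibroblast and matrix genes had 14 of 162 (8.64%, 2.22 points), skeletal muscle genes 7 of 80 (8.75%, 0.476 points), blood genes 3 of 31 (9.68%, -4.93 points), glial genes 1 of 32 (3.13%, -0.895 points) and epithelial genes 0 of 21 (interval up to 15.5%, -2.68 points). All these intervals held the 8.61% of all regions, and whether other cell types had a part in the difference between the replicates was not tested.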

How the data were processed

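Per the labels, both libraries are DNase-seq of MN1 cells aligned to mm10. Each library has its own deposited lists of peaks and hotspots, with no pooling. Aligner and caller: not given in the sources used here. The authors deposited a score of 1 to 150 for each 150 bp peak and, for each hotspot, the −log10 of a q-value, from 1.30 up to a ceiling of 100. No reads or counts were used.

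Entries listed more than once (15 in replicate 1, 26 in replicate 2) were kept once, and percentiles gave tied scores their average rank over all peaks of a list. Gene models were GENCODE M21 and sequences RefSeq GRCm38.p6. Motifs were matched without mismatch except NFI palindromes and NRF1 (1 mismatch) and RFX palindromes, CTCF, REST and the steroid receptor element (2 mismatches); E-boxes can overlap other motifs. Each region was given to the nearest protein-coding TSS. Flanks were 150 bp windows 1 kb downstream. The regions, motifs, gene lists and alternatives were chosen with earlier results of these data known. Named are the 10 regions of largest difference, the 10 genes with most regions, and in each list up to 5 genes with 2 or more; a few are given without values. The steps were tested on simulated data. Calculations ran in Python 3.11.15 with pandas 2.3.3, scipy 1.17.1 and numpy 2.4.6.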

Additional observations from a re-analysis of the deposited data

Results flagged for a closer look

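Chromosome X was left out of the choice of regions. Of its 1410 shared distal regions, 119 (8.44%, 95% Wilson interval 7.10% to 10.0%) were at least 25 points higher in replicate 1 and 83 (5.89%) in replicate 2. The share for replicate 1 is near the 8.61% of the autosomes. That for replicate 2 lies above the highest autosome, chromosome 16 (4.92%), but within its 95% Wilson interval (4.11% to 5.90%). These are values in data outside the main measurement, with no untreated library to set them against.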

How the results depend on the processing

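No paired analysis was possible because both libraries belong to 1 group, and no replicate could be left out because the rule needs both. With thresholds of 20 and 35 points, 9849 and 2480 regions were stronger in replicate 1 and 4576 and 613 in replicate 2. With percentiles among shared distal regions, 5426 were stronger in replicate 2, and CAGCTG was in 19.9% of those stronger in replicate 1; the cause was not tested. At 35 points the shares in regions stronger in replicate 1 were 6.17% for EBF, 0.403% for CTCF, 0.565% for the steroid receptor element and 59.4% in introns. In 300 bp windows they were 26.1% for AP-1, 5.71% for EBF, 1.45% for CTCF, 1.87% for the steroid receptor element and 29.1% for CAGCTG, as wider windows hold more bases. With 1 mismatch, CTCF was 0.0311% and the steroid receptor element 0.0622%. Under 45%, 45 to 55% and over 55% GC, AP-1 was 23.2%, 22.8% and 14.5% and CAGCTG 8.84%, 17.7% and 28.9%; EBF was 3.01% under 45% and 5.65% over 55%, CTCF 0% and 1.41%, and the steroid receptor element 0.471% over 55%. In 3 equal parts by mean percentile, from low to high, CAGCTG was 16.9%, 20.2% and 24.7%, and in the highest AP-1 was 16.3%, EBF 6.46% and the steroid receptor element 0.281%; only there AP-1 was below its share in balanced regions (0.854 times). Having another such region within 50 kb held for 51.5%, and for 63.0% and 28.1% at 20 and 35 points, 49.7% with an overlap of 75 bp, 48.9% over 5 kb from a TSS, and 34.3% and 70.6% within 25 and 100 kb. Against regions stronger in replicate 2, CAGCTG, EBF, CAGATG, AP-1, CTCF and the steroid receptor element kept their direction in all alternatives run. SOX (ratio 1.01) and FOX (1.31) turned over 55% GC, and NFI half-sites (0.762), RFX palindromes (0.219) and NFY (1.41) in the part with the highest mean percentile, which holds 356 regions stronger in replicate 1 and 26 in replicate 2. SP/KLF changed direction in 7 of 15, E2F and TCF/LEF in 4, and GATA in none. The unknown depth limits which weak sites are listed at all.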
